A study of Peromyscus californicus with 17 samples.

Results

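Surfactant is the film of lipid and protein that lowers surface tension in the alveoli and keeps them open at the end of a breath. It is made by type 2 alveolar cells, which store it in lamellar bodies, organelles related to lysosomes, and release it into the airspace. SP-B and SP-C, the small hydrophobic proteins of the film, are cut from larger precursors on the way to the lamellar body, whereas SP-A and SP-D are collectins that bind microbes and take part in the turnover of surfactant. The genes described here encode these proteins and the machinery around them. Of 8 symbols chosen by name (Sftpa1, Sftpb, Sftpc, Sftpd, Abca3, Lamp3, Napsa and Slc34a2), 7 have a row among the 27786 genes measured, and all 7 passed the filter of at least 1 FPKM in at least 1 animal. Sftpa1, which encodes SP-A, was not analysed here, since no row carries that symbol.

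RNA was sequenced from the lungs of 17 male Peromyscus californicus, a monogamous deer mouse, with 1 library per animal. The bonded group (B1 to B6, n = 6) had lived with a mate for 4 months. The bond-disrupted group (BD1 to BD6, n = 6) had been paired for the same time and was then taken out of the mating cage, with lungs collected 7 days later. The virgin group (V2 to V6, n = 5) was of similar age and was housed in groups. All animals came from a genetically diverse, outbred stock, and the study spread siblings, with 2 virgins as cousins, over the groups. The question was whether the bonding history of the animal alters expression in the lung.

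The values are FPKM, reads scaled by gene length and library depth, but each deposited column had been divided by the length of another gene, which stands 1 row above in the first column and 17 rows above in the last. With that shifted length, 96.0% to 99.7% of the low values of an animal that were divided by the length of a small RNA gene came out as whole reads within 0.03 of a read. With the gene's own length, 2.48% to 11.8% did. Lengths and depths were therefore solved from the values and FPKM was recomputed with each gene's own length. Depth was about 30800000 to 68200000 reads (median 44000000), and a value of the 7 genes rested on 10138 to 893021 reads. As deposited, the highest Sftpc value was 47.4 times the lowest, and with its own length it was 2.33 times the lowest. For Abca3 the same ratio was 185 as deposited and 2.01 with its own length. Of the 119 values of the 7 genes, 118 rest on a length solved from whole reads and 1, Napsa in V4, on an estimated length.

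**Figure D1:**
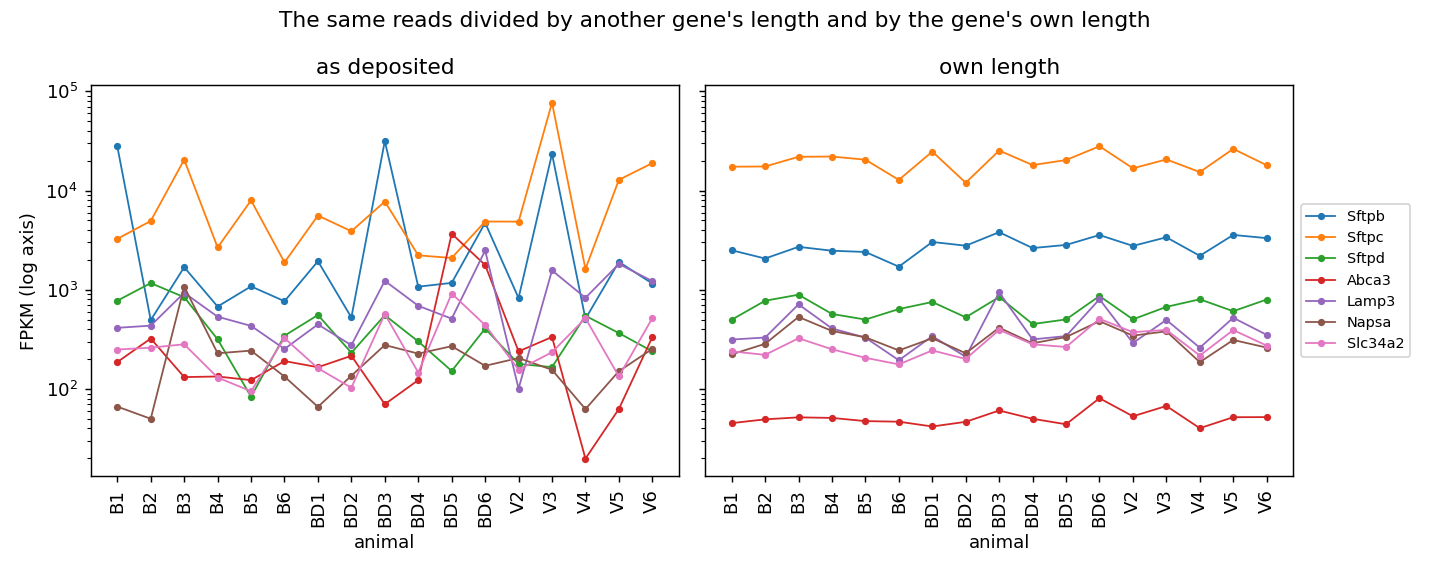
FPKM of the 7 genes (log axis) in each of the 17 animals, as deposited (left) and with each gene's own length (right), with 1 line per gene. As deposited the lines cross and Sftpc spans a ratio of 47.4, while with own lengths Sftpc spans a ratio of 2.33, Lamp3 4.83, and the lines of Sftpd, Lamp3, Napsa and Slc34a2 still cross.

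Per length, the 7 genes covered a wide span of levels. Their full order by mean was found in 6 of 17 animals, and the genes in the middle exchanged places in the others. Sftpc had a mean of 19872 FPKM ± 4547 (SD, n = 17), the rank 2 of all genes, behind the club cell secretoglobin Scgb1a1. Sftpb followed with 2810 FPKM ± 577 at rank 8, and Sftpd with 659 FPKM ± 151 at rank 53. Lamp3 (421 FPKM ± 211), Napsa (327 FPKM ± 92.0) and Slc34a2 (292 FPKM ± 91.4) lay close together, and Abca3 was lowest with 51.8 FPKM ± 9.92. Sftpc was above Sftpb in 17 of 17 animals, by 4.31 to 8.90 times, and Sftpb was above Sftpd in 17 of 17. Sftpd exceeded Lamp3 in 16 of 17 animals. The neighbours Lamp3 and Napsa did not keep their order, with Lamp3 higher in 13 of 17, and Napsa was above Slc34a2 in only 10 of 17. The ranges of these neighbouring levels over the animals overlapped, and the differences between them were not tested. Slc34a2 was above Abca3 in 17 of 17. Of the summed FPKM of the 7 genes, Sftpc alone made up 75.0% to 84.3%.

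**Figure D2:**
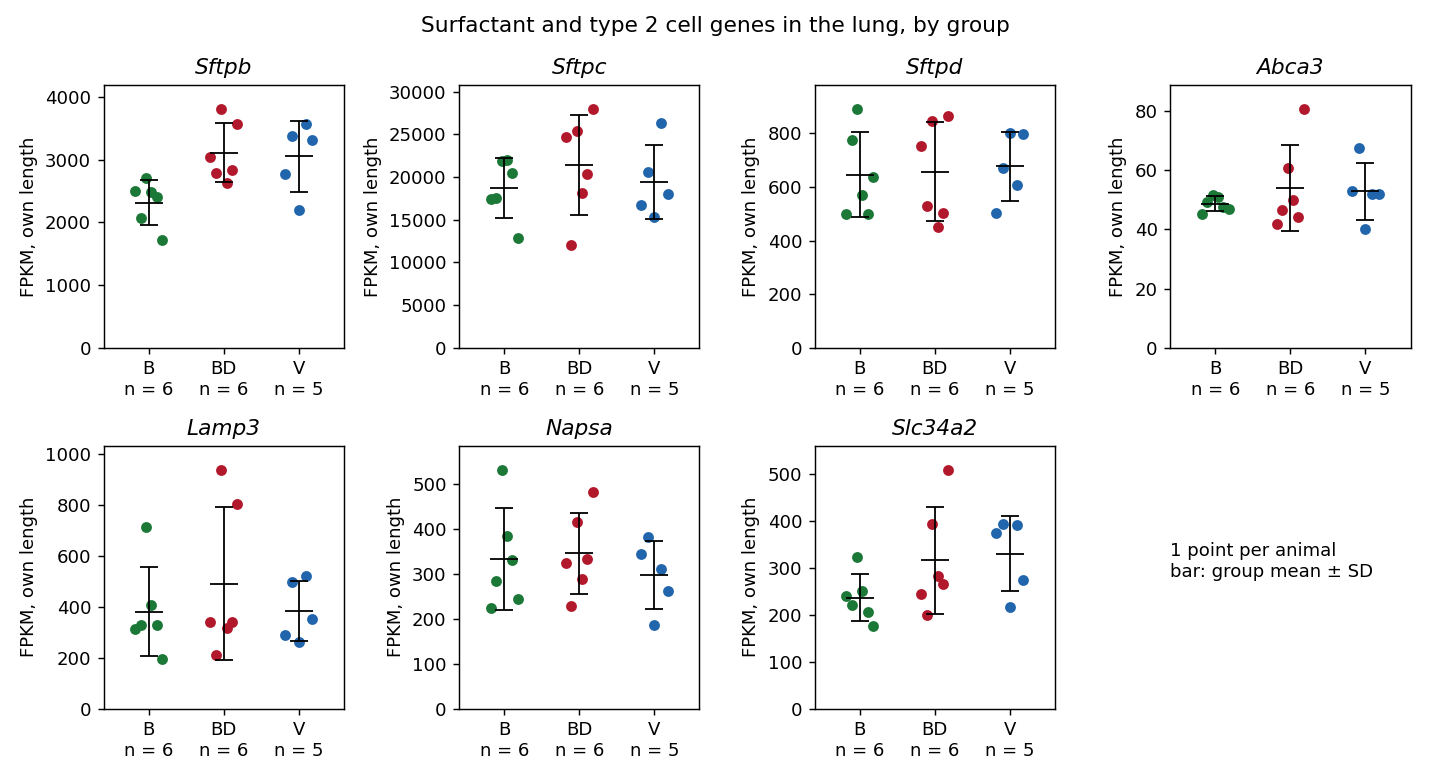
FPKM with own length for each gene (linear axis from 0), with 1 point per animal and the bar giving the group mean ± SD, in bonded (B, n = 6), bond-disrupted (BD, n = 6) and virgin (V, n = 5) animals. The groups overlap for each of the 7 genes, and for Sftpb B runs from 1710 to 2710 and BD from 2634 to 3808.

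In each of the 3 comparisons between bonding histories 0 of the 7 genes were called. A call needed a change of 2-fold or more together with an adjusted p below 0.1, by limma with Benjamini-Hochberg adjustment over 15930 genes. Of all genes tested, 0% were called for bond-disrupted against bonded animals, 0.00628% for virgin against bonded and 0% for virgin against bond-disrupted. limma's voom on the recovered reads also called 0 of the 7. At an unadjusted p under 0.05, 1 of the 7 passed for bond-disrupted against bonded and 1 for virgin against bonded, in both cases Sftpb, and 0 for virgin against bond-disrupted. The shares of all genes passing at that level were 5.88%, 3.71% and 4.31%, and 2.85%, 2.13% and 2.2% passed it with the first-named group higher, as Sftpb did. The median log2 fold change of the 7 genes was 0.17, 0.08 and −0.04 in these comparisons, beside 0.0055, 0.0059 and 0.0043 for all genes tested. Single animals moved the set's median: leaving out 1 of them gave 0.07 (without BD3) to 0.32 (without BD2) for the first comparison, 0.02 (without V3) to 0.19 (without V4) for the second and −0.10 (without V3) to 0.03 (without BD3) for the last. Both comparisons with bonded animals share that group, and the p-values set a group difference against the spread between animals, estimated over the 3 groups in one fit.

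Sftpb encodes the precursor of SP-B, which organises surfactant lipid into layers and without which newborns cannot breathe. Its level in bonded animals ran from 1710 FPKM in B6 over a median of 2441 to 2710 in B3. In bond-disrupted animals it ran from 2634 in BD4 over 2933 to 3808 in BD3. In virgins it was 2769 in V2, 3383 in V3, 2200 in V4, 3573 in V5 and 3318 in V6. Bonded animals were thus at the low end, but B3 lay above BD4, and V4 lay inside the range of the bonded group. Between animals with the same number, siblings by the study's account, Sftpb was higher in the bond-disrupted animal in 6 of 6 pairs, by ratios of 1.06 to 2.08 (median 1.28). For the other genes this was so in 2 (Abca3) to 5 (Slc34a2) of 6 pairs. These are the same values as in the group comparison, and the share of all genes with 6 of 6 pairs in one direction was not counted. With the number as a block, the adjusted p of Sftpb in limma was 0.86. The log2 difference was 0.43 for bond-disrupted minus bonded (SE 0.14, 95% interval 0.14 to 0.72, unadjusted p = 0.00634, adjusted p = 0.82 in limma). For virgin minus bonded it was 0.39 (SE 0.14, interval 0.09 to 0.70, unadjusted p = 0.0147, adjusted p = 1 in limma). Virgin minus bond-disrupted gave −0.04 (interval −0.34 to 0.27), from −0.10 without V5 to 0.08 without V4. Leaving out any 1 animal kept the first of these differences between 0.35 and 0.48, and 0 of those fits called it.

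Sftpc encodes the precursor of SP-C, a protein found in type 2 cells alone in the adult lung. Bonded animals had 12823 FPKM at the lowest (B6), a median of 18998 and 22044 at the highest (B4). Bond-disrupted animals held both extremes of the 17, 12001 in BD2 and 27993 in BD6, with a median of 22521. The virgins had 16783 in V2, 20610 in V3, 15380 in V4, 26333 in V5 and 18033 in V6. The spread within the bond-disrupted group, 5840 FPKM (SD, n = 6), was wide beside the means of 21413 FPKM in that group and 18700 FPKM in the bonded group. On the log2 scale bond-disrupted minus bonded was 0.17 (interval −0.25 to 0.58), virgin minus bonded was 0.05 (interval −0.38 to 0.49) and virgin minus bond-disrupted was −0.11 (interval −0.55 to 0.32). The first value was 0.06 without B6, 0.08 without BD6 and 0.32 without BD2, and the second turned to −0.05 without B6 and −0.06 without V5. The last was −0.27 without BD2, −0.23 without V5 and −0.03 without BD6.

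Sftpd encodes the collectin SP-D, which airway cells make as well. It ran from 499 FPKM in B1 over a median of 605 to 892 in B3 among bonded animals, and from 452 in BD4 over 641 to 866 in BD6 among bond-disrupted ones. Virgins had 503 in V2, 673 in V3, 802 in V4, 608 in V5 and 798 in V6. The 3 groups covered nearly the same range. The log2 difference was 0.01 for bond-disrupted minus bonded (interval −0.40 to 0.42) and 0.08 for virgin minus bonded (interval −0.35 to 0.51). Leaving out 1 animal moved the first between −0.08 (without BD6) and 0.11 (without B3), and the second between 0.01 (without B1) and 0.18 (without V2).

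Napsa encodes napsin A, an aspartic protease that helps to cut the SP-B and SP-C precursors. Bonded animals ran from 223 FPKM in B1 over a median of 309 to 532 in B3, the highest of all 17. Bond-disrupted animals ran from 229 in BD2 over 329 to 482 in BD6. Virgins had 345 in V2, 381 in V3, 186 in V4, 312 in V5 and 261 in V6, and the lowest of these is the value with the estimated length. The log2 difference was 0.07 for bond-disrupted minus bonded (interval −0.41 to 0.55) and −0.15 for virgin minus bonded (interval −0.65 to 0.36). Leaving out 1 animal moved the latter between −0.25 (without B1) and 0.01 (without V4). The former was 0.22 without B3 and turned to −0.03 without B1 or without BD6.

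Abca3 encodes the transporter that carries phospholipid into the lamellar body, and its loss leaves these organelles small and dense. It varied least among bonded animals, from 45.2 FPKM in B1 over a median of 48.4 to 51.7 in B3. Bond-disrupted animals ran from 41.9 in BD1 over 48.3 to 80.7 in BD6. Virgins had 53.0 in V2, 67.4 in V3, 40.2 in V4, 51.9 in V5 and 52.0 in V6. The medians of bonded and bond-disrupted animals almost coincided, and BD6 stood apart above them. Bond-disrupted minus bonded was 0.11 on the log2 scale (interval −0.19 to 0.41), from −0.01 without BD6 to 0.18 without BD1. Virgin minus bonded was 0.10 (interval −0.21 to 0.42), from 0.01 without V3 to 0.20 without V4.

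Lamp3, also known as DC-LAMP, is a membrane protein of the lamellar body that mature dendritic cells carry too. It had the widest spread of the 7 genes, with a ratio of 4.83 between the highest and the lowest animal. Bonded animals ran from 195 FPKM in B6 over a median of 330 to 713 in B3, and bond-disrupted ones from 211 in BD2 over 341 to 940 in BD3, with BD6 next at 804. Virgins had 291 in V2, 497 in V3, 261 in V4, 522 in V5 and 351 in V6. B3 alone among bonded animals, and BD3 and BD6 among bond-disrupted ones, lay far above the median of their group. The interval of the log2 difference was accordingly wide, −0.49 to 1.03 for bond-disrupted minus bonded (estimate 0.27) and −0.73 to 0.86 for virgin minus bonded (estimate 0.07). The first estimate was 0.04 without BD3, 0.08 without BD6 and 0.09 without B6, and was 0.47 without B3 or without BD2, while the second ran from −0.11 without B6 to 0.27 without B3. Each Lamp3 length was solved from whole reads, but in 5 animals the other genes divided by the same length, 4 to 7 of them, lay off their own medians, by a median log2 deviation of 0.43 in V3 and V4, 0.67 in V5, −0.32 in BD4 and −0.28 in BD6. The part of this in the Lamp3 values was not tested. The lowest and the highest Lamp3 value, in B6 and BD3, are not among those 5. BD3 lay just inside the limit of 0.2, however, with a deviation of −0.19 over 4 other genes.

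Slc34a2 encodes the sodium phosphate cotransporter of the apical membrane, which takes up the phosphate freed when surfactant lipid is broken down. Bonded animals ran from 177 FPKM in B6 over a median of 230 to 324 in B3. Bond-disrupted animals ran from 201 in BD2 over 274 to 510 in BD6. Virgins had 374 in V2, 394 in V3, 217 in V4, 393 in V5 and 274 in V6. Its log2 difference was 0.37 for bond-disrupted minus bonded (interval −0.09 to 0.83, unadjusted p = 0.107, adjusted p = 0.88 in limma) and 0.47 for virgin minus bonded, the largest estimate of the 7 genes there (interval −0.01 to 0.95, unadjusted p = 0.0562, adjusted p = 1 in limma). The first of these was 0.22 without BD6, and the second stayed between 0.39 and 0.61 whichever animal was left out. V2, V3 and V5 exceeded all 6 bonded animals, whereas V4 and V6 lay within their range.

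**Figure D3:**
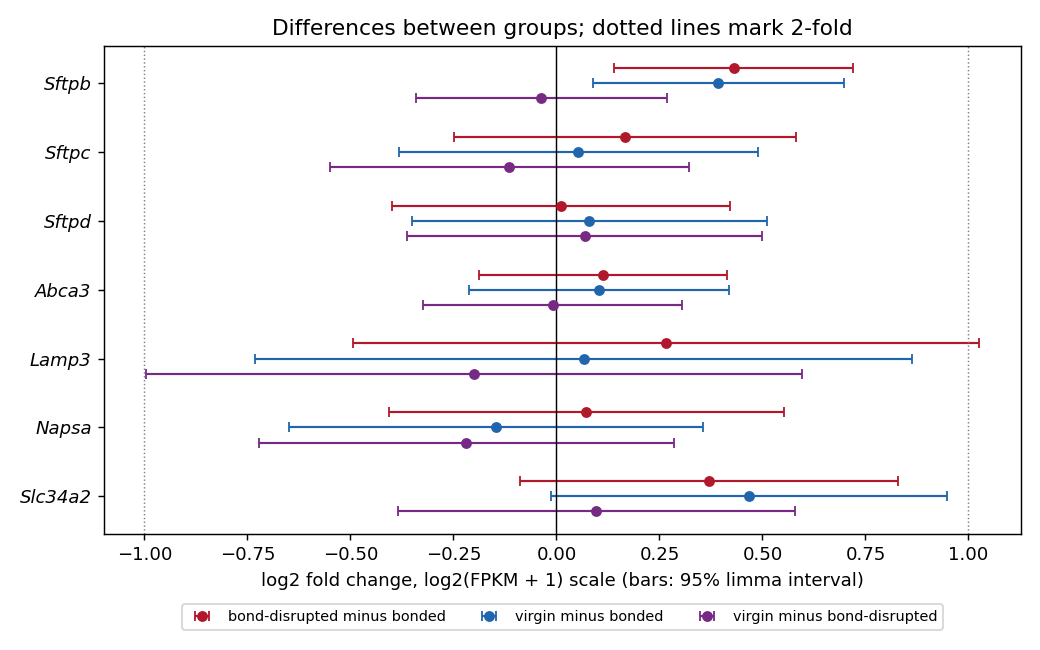
Log2 fold change of each gene on the log2(FPKM + 1) scale (horizontal axis) for the 3 comparisons, with bars giving the 95% limma interval and dotted lines at a 2-fold change. The intervals of Sftpb exclude 0 in both comparisons with bonded animals before adjustment, and Lamp3 has the widest ones, up to 1.03.

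Single animals were high or low for most of the set. BD3 and BD6 were among the 3 highest animals for 7 of 7 genes, and B3 for 3. V4 was among the 3 lowest for 5 of 7 genes, and B6 and BD2 for 4 each. The mean deviation of the 7 genes from their own means, on the log2 scale, was 0.65 in BD6, 0.53 in BD3 and 0.36 in B3. It was −0.49 in B6, −0.41 in BD2 and −0.33 in V4. The bond-disrupted group thus held animals at both ends. Same-numbered animals did not share the level throughout, since number 3 had 0.36 in B3, 0.53 in BD3 and 0.28 in V3, while number 6 had −0.49 in B6, 0.65 in BD6 and 0.01 in V6.

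**Figure D4:**
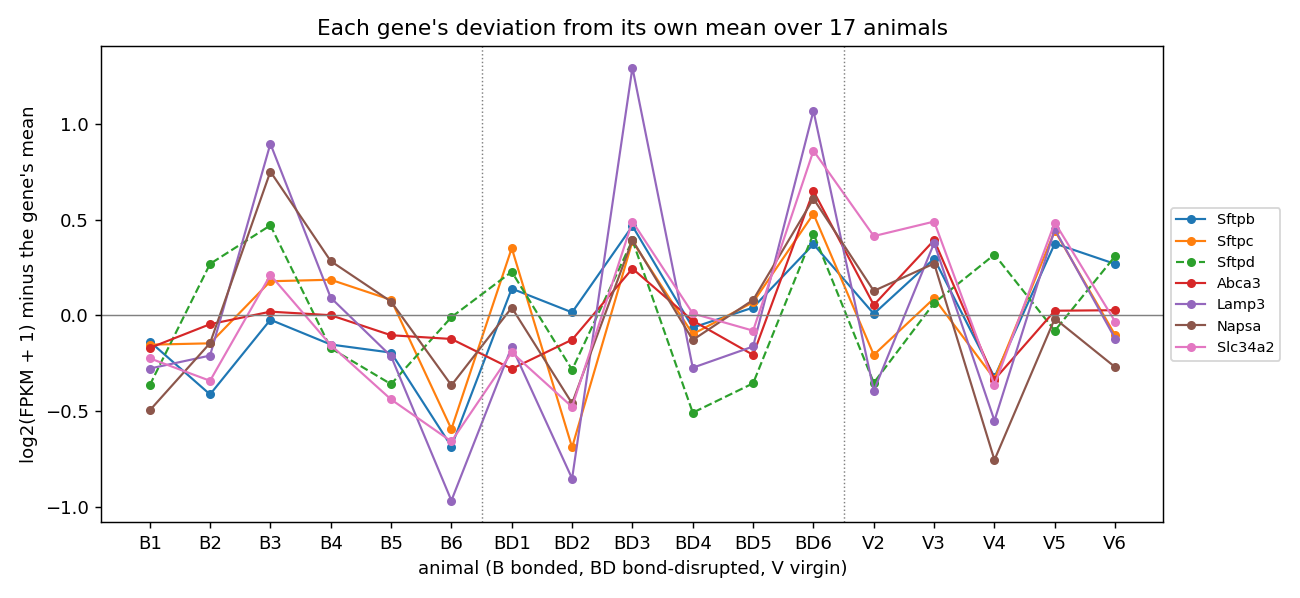
Deviation of log2(FPKM + 1) from the gene's own mean over 17 animals (vertical axis) for each animal, with 1 line per gene, Sftpd dashed, and dotted lines between the groups. The lines peak together in BD3 and BD6 and dip in B6, BD2 and V4 for most genes, with Sftpd above its mean in V4.

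The levels of the genes varied together from animal to animal. All 21 pairs had a Pearson r above 0 over the 17 animals, from 0.24 to 0.84 (median 0.67). In 14 of the 21 pairs the correlation passed an adjusted p under 0.05 (two-sided permutation test with 100000 permutations, Benjamini-Hochberg over 21 pairs), and in 13 by Spearman's rho. Here and below the permutations treat the 17 animals as exchangeable and take no account of relatives across the groups. The closest pair was Sftpc and Lamp3, the SP-C precursor and the lamellar body protein (r = 0.84, permutation p = 4e-05, adjusted p = 0.00028, and rho = 0.90, permutation p = 1e-05, the smallest these permutations can give, adjusted p = 0.00021). Without the 2 animals farthest from the median Sftpc, r was 0.78, and with group means subtracted 0.84. Next were Abca3 with Slc34a2 (r = 0.81, rho = 0.81), Lamp3 with Slc34a2 (r = 0.81, rho = 0.79), Lamp3 with Napsa (r = 0.81, rho = 0.77) and Sftpb with Slc34a2 (r = 0.80, rho = 0.78), all with an adjusted permutation p of 0.002 or lower for both coefficients. The genes for SP-B and SP-C had r = 0.67 (permutation p = 0.0026, adjusted p = 0.005) and rho = 0.63 (permutation p = 0.0077, adjusted p = 0.013), and r = 0.51 without the 2 animals farthest from the median Sftpb.

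The 6 pairs of Sftpd included 5 of the 7 that did not pass, with r from 0.24 with Sftpb to 0.35 with Sftpc. Only Sftpd with Lamp3 passed by Pearson (r = 0.54, permutation p = 0.027, adjusted p = 0.04) and not by Spearman (rho = 0.52, adjusted permutation p = 0.052), and r was 0.47 without the 2 animals farthest from the median Sftpd. Whether the correlations of Sftpd differ from those of the other genes was not tested. The length check of Sftpd deviated by 0.20 in V2 and 0.26 in V5 (log2), and in the other 15 animals, an alternative added after seeing the data, its r ran from 0.29 to 0.55 and 0 of its 6 pairs passed (lowest adjusted permutation p = 0.17). The other pairs that did not pass were Sftpc with Abca3 (r = 0.50, adjusted permutation p = 0.057) and Sftpb with Napsa (r = 0.50, adjusted permutation p = 0.057). Over the 14 pairs that passed, r without the 2 farthest animals ran from 0.47 to 0.78. In the 12 animals without a deviating length check for Lamp3, an alternative added after seeing the data, Lamp3 had r = 0.79 with Sftpc (permutation p = 0.0036, adjusted p = 0.011 over 6 pairs, rho = 0.85, permutation p = 0.00087, adjusted p = 0.0052). These 12 include BD3, whose check stood at −0.19. With Sftpb r was 0.60 there and −0.01 without the 2 animals farthest from the median Sftpb, and with Sftpd 0.60 and 0.14 in the same way, so these 2 relations rest on those animals. With Abca3 r was 0.65 (adjusted permutation p = 0.039) but rho 0.41 (adjusted permutation p = 0.19), and r was 0.44 without the 2 farthest animals, so that pair no longer passed by Spearman. Napsa (r = 0.80, rho = 0.71) and Slc34a2 (r = 0.75, rho = 0.71) passed with Lamp3 by both coefficients (adjusted permutation p of 0.026 or lower), with r = 0.79 and 0.89 without the 2 farthest. On the values as deposited 0 of the 21 pairs passed, and r ran from −0.29 to 0.47. In bulk lung a change in the number of type 2 cells and a change in RNA per cell cannot be told apart.

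**Figure D5:**
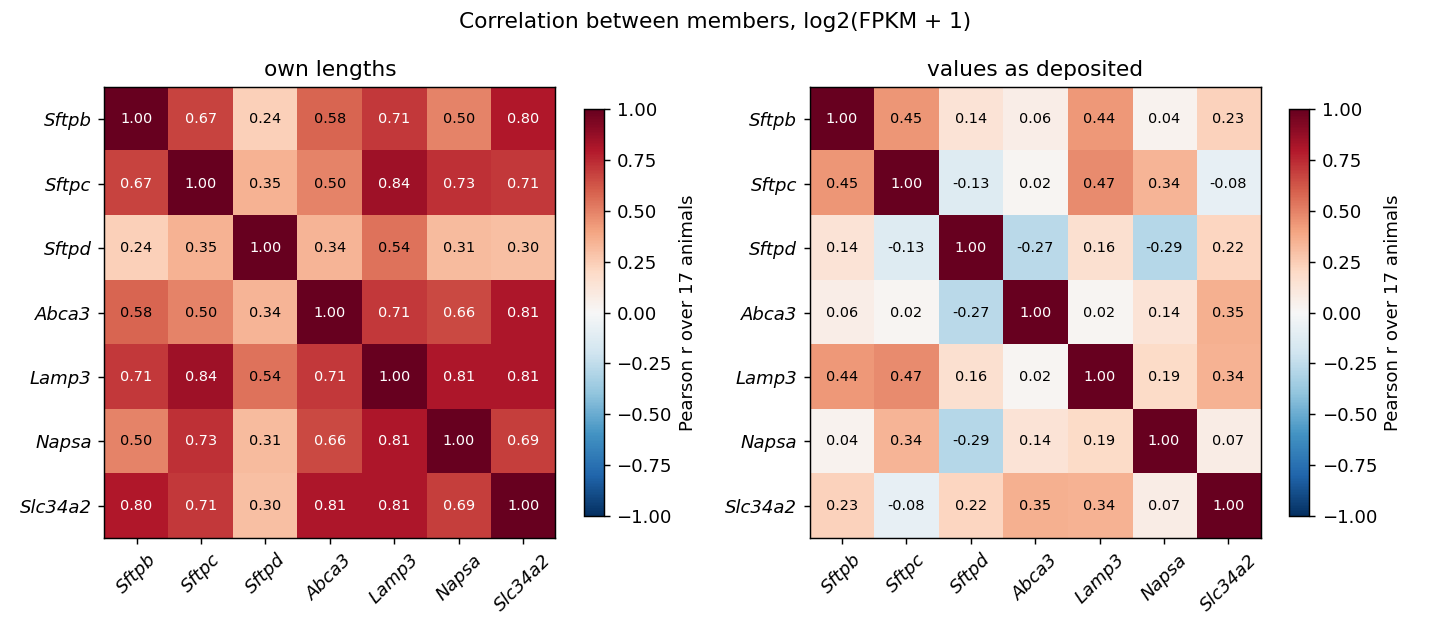
Pearson r between each 2 of the 7 genes over 17 animals on the log2(FPKM + 1) scale, with own lengths (left) and as deposited (right), on a colour scale from −1 to 1. With own lengths r runs from 0.24 to 0.84, with the Sftpd row palest, and as deposited it runs from −0.29 to 0.47.

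Against all genes with a mean of at least 10 FPKM, these correlations lay high in the range. With Sftpc, 4 of the 6 other genes of the set had r above 0.5 and 3 above 0.7, whereas 11.3% and 2.18% of 6929 genes did. Lamp3 ranked 10 among the 6929. Outside the set, the genes most like Sftpc were Scamp2, a carrier protein of secretory vesicles (r = 0.89), Igsf5, a junction protein (r = 0.89), and Cln8, which helps lysosomal enzymes leave the endoplasmic reticulum (r = 0.88). The genes most like the mean of the 7 were Rab43, a small GTPase of Golgi traffic (r = 0.91), Grn, the lysosomal progranulin (r = 0.91), LOC128119073 (r = 0.89), Bzw2 (r = 0.88) and Mfsd12, a cysteine transporter of lysosomes and melanosomes (r = 0.88). Without the 2 animals farthest from the median these r values were 0.77 to 0.86. All were picked as the highest of 6923 genes over 17 animals, so they are a description.

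The genes around the set were listed by their role. Over 6 lists with 74 genes tested, 0 passed an adjusted p under 0.1 in any comparison. At an unadjusted p under 0.05, 3 were higher and 0 lower in bond-disrupted than in bonded animals, 2 were higher and 0 lower in virgin than in bonded animals, and 1 was higher and 2 lower in virgin than in bond-disrupted animals. The first 3 were Canx, Abca1 and Chpt1, the next 2 Fgfr2 and Nedd4l, and the last 3 Rab3d (higher), Abca1 and Chpt1 (both lower), named after their values were seen. Of all genes tested 5.88%, 3.71% and 4.31% passed at this level.

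Among regulators of the type 2 cell (12 of 12 tested), the leading levels were those of the receptor Fgfr2 (78.1 FPKM), the lung transcription factor Nkx2-1 (41.5 FPKM) and Cebpa (34.1 FPKM). Fgfr2 had 67.6 FPKM ± 10.6 (SD, n = 6) in bonded, 80.3 ± 10.4 (n = 6) in bond-disrupted and 88.1 ± 22.5 (n = 5) in virgin animals, while Nkx2-1 had 40.7, 41.7 and 42.3. The list's median log2 fold change was 0.09 for bond-disrupted minus bonded, 0.11 for virgin minus bonded and 0.03 for virgin minus bond-disrupted. In the list of proprotein processing (11 of 11 tested), the chaperone Calr (268 FPKM), the protease Ctsh (218 FPKM) and the disulfide isomerase Pdia3 (214 FPKM) were highest, and the medians were 0.05, −0.02 and −0.05 in the same order. Ctsh, cathepsin H, which trims the SP-B and SP-C precursors, ran from 132 to 373 FPKM over the animals.

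Of the lamellar body traffic list (13 of 13 tested), which holds the sorting complexes that build the organelle, the lysosomal protease Ctsd (627 FPKM), the membrane protein Lamp1 (424 FPKM) and the tetraspanin Cd63 (251 FPKM) led. The medians were 0.03, 0.06 and 0.01. In this list the cholesterol exporter Abca1 had 7.04 FPKM ± 1.07 in bonded, 10.3 ± 2.63 in bond-disrupted and 7.52 ± 2.01 in virgin animals (bond-disrupted minus bonded, log2 0.47, unadjusted p = 0.014, adjusted p = 0.82 in limma). For secretion of lamellar bodies (12 of 12 tested), Adgrf5, a receptor that restrains the surfactant pool (241 FPKM), Vamp2 (141 FPKM) and Anxa7 (79.7 FPKM) led, and the medians were 0.05, 0.05 and 0.01.

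Surfactant lipid synthesis (15 of 16 tested) was led by Prdx6, a peroxiredoxin with phospholipase activity that recycles surfactant lipid (472 FPKM), Lpcat1, which makes the saturated phosphatidylcholine of surfactant (113 FPKM), and Elovl1 (84.6 FPKM). Lpcat1 had 100.1 FPKM ± 26.2 in bonded, 131 ± 48.9 in bond-disrupted and 106 ± 11.4 in virgin animals (bond-disrupted minus bonded, log2 0.35, adjusted p = 0.87 in limma). Prdx6 had 436 ± 68.0, 524 ± 129.6 and 451 ± 33.5 (log2 0.24, adjusted p = 0.88 in limma). Chpt1, which catalyses the last step to phosphatidylcholine, had 29.0 ± 4.8, 36.3 ± 3.26 and 30.4 ± 4.55 (log2 0.32, unadjusted p = 0.0097, adjusted p = 0.82 in limma). The medians of the list were 0.13, 0.07 and −0.06. Surfactant clearance (11 of 12 tested), the work of alveolar macrophages under the control of GM-CSF, was led by the lipid carrier Fabp5 (134 FPKM), the scavenger receptor Marco (94.2 FPKM) and Fabp4 (84.1 FPKM), with medians of 0.10, −0.03 and −0.09.

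The label of a type 2 set was checked against other markers of the lung. Of 18 further type 2 markers, 13 have a row and 11 were tested, led by Cd74 (1224 FPKM), which antigen-presenting cells share, Ctsc (145 FPKM) and Lgi3 (104 FPKM), while Mlc1 and Dlk1 were not among the genes tested. Cd74 made up 57.5% to 81.7% of their summed level (median 69.2%), so the sum mostly gives that gene. The sum and Sftpc had a correlation over the 17 animals that passed by Pearson and not by Spearman (r = 0.67, permutation p = 0.003, adjusted p = 0.036 over 12 relations, and rho = 0.64, permutation p = 0.0067, adjusted p = 0.071), with r = 0.54 without the 2 animals farthest from the median Sftpc. For the other 10 markers without Cd74, a relation added after seeing the data and outside the 12, r was 0.82 (permutation p = 6e-05) and rho 0.74 (permutation p = 0.0014), with r = 0.69 without those 2 animals. The macrophage markers gave r = 0.58 (permutation p = 0.015, adjusted p = 0.089) and rho = 0.61 (permutation p = 0.012, adjusted p = 0.071), with r = 0.68 without those 2 animals. Lpl, which fat cells secrete too, weighed most in their sum. Its mean was 65.6 FPKM beside group medians of the sum of 131 (bonded), 162 (bond-disrupted) and 131 (virgin). The part of the macrophage markers in the pattern was not tested. The other 9 marker lists, those of type 1, airway secretory, ciliated, endothelial, fibroblast, lymphocyte, neutrophil, red blood and cardiac muscle cells, and the depth gave r from −0.46 to 0.53, and none passed the adjustment by either coefficient (lowest adjusted permutation p = 0.11). Depth gave r = 0.01. With the mean of the 7 genes in place of Sftpc, given as a description over 17 animals of shared libraries, r was 0.68 for the other type 2 markers and equally 0.68 for the macrophage markers, 0.79 for proprotein processing, 0.76 for lamellar body traffic, 0.74 for surfactant clearance and 0.68 for type 2 regulators. It was 0.03 for secretion of lamellar bodies and −0.01 for surfactant lipid synthesis, so these sums did not follow the set. It was −0.63 for ciliated, −0.55 for cardiac muscle and −0.51 for airway secretory markers. In such sums genes with high levels weigh most. Prdx6 had a mean of 472 FPKM beside group medians of 877 (bonded), 1028 (bond-disrupted) and 929 (virgin) for the lipid synthesis sum. Adgrf5 had 241 beside 652, 658 and 668 for secretion, and Ctsd 627 beside 1301, 1438 and 1521 for lamellar body traffic. Sums without these genes were not tested. The part of the lists in the shared pattern was not tested either.

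The summed macrophage markers, 5 of 8 tested and led by Lpl, ran from 87.1 to 177 FPKM in bonded (median 131), 144 to 261 in bond-disrupted (median 162) and 87.6 to 159 in virgin animals (median 131). Of their genes 1, Lpl, was higher in bond-disrupted than in bonded animals at an unadjusted p under 0.05, beside 2.85% of all genes tested. Lpl was also lower in virgin than in bond-disrupted animals (log2 −0.65, unadjusted p = 0.029 in limma), and 0 of the genes passed the adjustment. The other lists given here overlapped between the groups as well. The summed type 1 markers, 9 of 10 tested and led by Ager, ran from 2583 to 4344 FPKM in bonded, 3164 to 5057 in bond-disrupted and 2903 to 4392 in virgin animals. The airway secretory markers, 4 of 7 tested and mostly Scgb1a1, ran from 49426 to 131372, from 61656 to 119002 and from 53864 to 172933. Cardiac muscle markers, 6 of 7 tested, ran from 52.7 to 545, from 92.1 to 305 and from 127 to 406, a wide spread within each group. No listed marker with a row was at 0 in all animals.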

How the data were processed

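Lung RNA of 17 animals was measured, 1 library each. The authors deposited FPKM, 1 column per animal, and 0 columns were left over. Per the submitters' processing notes, FastQC, Trim Galore 0.4.5, STAR 2.7.2, SAMtools 1.5 and featureCounts of Subread 1.5.3 were named, with no genome build. All 27786 gene names match RefSeq symbols of assembly ASM782708v3, used for names, gene spans and small RNA lengths, and no sequence or coordinate is given.

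Depths and lengths were searched for that turn the deposited values into whole reads. Of 27787 lengths, 27131 were solved, 174 were estimated from gene medians and 482 were not settled, and 97.9% of recovered values were whole within 0.05 of a read. Of 1579 small RNA lengths solved from reads, 1424 equalled the RefSeq length. One run of 11 neighbouring lengths was divided by 3 after calls were seen to lie in neighbouring rows. Over 14288 genes the median SD of log2 values fell from 1.54 to 0.23. For the 118 solved values of the 7 genes, each length rests on 7 to 17 whole values, and for 112 of all 119 the other genes with the same divisor lay within 0.2 (log2) of their medians; the rest were 5 of Lamp3 and 2 of Sftpd. Lengths are those the authors counted over, not annotated here. They were picked to give whole reads, and factors of them to bring genes near their medians. The share of whole values, the fall of the SD and the nearness to medians therefore describe the fit and are no separate check of it.

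limma 3.58.1 (R 4.3.3) was fitted to log2(FPKM + 1), pseudocount 1, with own lengths, 3 groups in one fit, on the 15930 genes with all values recovered and at least 1 FPKM in at least 1 animal; all tests are two-sided. Fold changes are on that scale. Groups come from the labels. Correlations used numpy 2.4.6 in Python 3.11.15. The fit was tested on simulated data, and so was the recovery of lengths and reads, with depths given and lengths taken from the recovery itself. The estimation of depth was not part of that test. Genes named are the members, the 3 highest of each list, those most like the members (5) and Sftpc (3); others were chosen after their values were seen. Members and lists were chosen with earlier results of these data known.

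Counting error is small at these depths (about 30800000 to 68200000 reads), so the precision rests mainly on the spread between animals and on the solved lengths, which were less sure for Lamp3 and Sftpd. Alternatives were pseudocounts 0.1 and 0.01, other filters, a trend, only the 2 groups compared, other scalings, voom, the deposited values, a block, other thresholds and leaving out each animal. Promoter motifs were not analysed here.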

Additional observations from a re-analysis of the deposited data

How the results depend on the processing

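No member was called under any of the 31 alternatives in any comparison (651 fold changes, lowest adjusted p = 0.485 in limma). Counts over all genes moved with the lengths. On the deposited values 40, 113 and 35 genes were called for bond-disrupted against bonded, virgin against bonded and virgin against bond-disrupted animals, against 0, 1 and 0 with own lengths (937, 591 and 687 at an unadjusted p under 0.05). Before 1 run of lengths was divided by 3, a correction added after seeing the data, the counts were 2, 7 and 2. The 1 gene called for virgin against bonded, Ythdc1 (named after its value was seen, log2 1.01, adjusted p = 0.098), had lengths resting on 3 to 8 whole values. It was lost (0 genes) with pseudocounts 0.1 and 0.01, no filter, the median-ratio factor, rescaling to equal sums, an adjusted p under 0.05 and the replicate block, and without 14 of the 17 animals in turn. It was called without BD3 or BD4, whereas without B4 the 1 gene called was another, LOC128094431. Leaving out 1 animal gave 0 to 1 genes for bond-disrupted against bonded (1 without B4), 0 to 1 for virgin against bonded and 0 for virgin against bond-disrupted. The cause was not tested. Correlated pairs numbered 0 on the deposited values and 12 to 15 when 1 animal was left out, against 14, and at most 16 in the other alternatives. Same-numbered animals are relatives, but only 7 of 16 such pairs had deviations from their group means correlating above 0.1 (−0.42 to 0.41), and 3 of 17 animals correlated best with their own number, so the block was kept as an alternative. By groups this held in 5 of 6 bonded and bond-disrupted pairs (0.08 to 0.41, all 6 above 0), 2 of 5 bonded and virgin and 0 of 5 bond-disrupted and virgin pairs. It called 0 genes in each comparison. Group size limits these results: the intervals of the members reach log2 1.03.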

Other observations

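Genes of alveolar macrophages differed in how far they varied between animals. Marco, a scavenger receptor, ran from 16.1 to 183 FPKM, and Fabp5, a lipid carrier, from 43.7 to 312 FPKM, while Cd68, a lysosomal protein of macrophages, ran from 16.9 to 65.0 FPKM. Marco had 91.8 FPKM ± 37.7 (SD, n = 6) in bonded, 100.5 ± 53.9 (n = 6) in bond-disrupted and 89.3 ± 33.2 (n = 5) in virgin animals. In the same order the means were 136, 145 and 120 FPKM for Fabp5 and 32.8, 38.8 and 31.1 FPKM for Cd68. Lpl, the lipoprotein lipase that macrophages and fat cells secrete, had 48.6 FPKM ± 20.2 in bonded, 88.4 ± 12.2 in bond-disrupted and 58.7 ± 21.7 in virgin animals. Bond-disrupted minus bonded was 0.94 on the log2 scale for Lpl, with an unadjusted p = 0.002 and an adjusted p = 0.82 in limma, so it was not called.

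The 9 type 1 cell markers tested had a median log2 fold change of 0.23 for bond-disrupted minus bonded, with 0 genes passing an unadjusted p under 0.05. Ager, the receptor that marks type 1 cells, had 1522 FPKM ± 368 in bonded, 1767 ± 337 in bond-disrupted and 1636 ± 217 in virgin animals. Scgb3a2, a secretoglobin of airway cells, ranged from 178 to 1825 FPKM over the 17 animals.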
